A study of Homo sapiens with 6 samples.

Results

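The genes described here encode the core of the RAS, RAF, MEK and ERK signalling cascade. They are BRAF, ARAF, MAP2K1, MAP2K2, MAPK3, NRAS and NF1, chosen by name, 7 of the 60504 genes in the deposited table. WM164 is a human melanoma cell line, and all 6 libraries carried the genotype BRAF V600E, an activating mutation of BRAF. In 3 libraries the cells had received an empty expression vector (EV), and in 3 a vector for HDAC8, a class I histone deacetylase. Per the methods, cells were transfected with Lipofectamine 2000 and kept in hygromycin, which both groups share. The comparison asked how added HDAC8 altered the transcriptome. The labels call the libraries biological replicates but do not give separate cultures, clones or pools, so p-values measure the spread between these libraries, which may be technical.

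RAS proteins are membrane-bound GTPases that switch on when they bind GTP. GTP-bound RAS recruits RAF kinases, RAF phosphorylates the MEK kinases MAP2K1 and MAP2K2, and MEK phosphorylates ERK kinases, among them the product of MAPK3. NF1 encodes neurofibromin, which returns RAS to its GDP-bound state. Mutations of BRAF, NRAS or NF1 drive most cutaneous melanomas, and inhibitors of BRAF and MEK are used together to treat BRAF-mutant disease.

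Total expected counts ran from 34741083 to 42041462 per library. Counts were divided by DESeq2 size factors, and these normalized counts are used for comparisons between libraries unless stated. Genes overlapping a core gene and copies of NF1 are given in expected counts before this division. The size factor was 1.17 in HDAC8 replicate 1 and 0.918 to 1.07 in the other libraries. HDAC8 itself had normalized counts of 384, 404 and 479 in EV replicates 1, 2 and 3, and of 485, 446 and 474 in the libraries labelled HDAC8. Its log2 fold change was 0.15 ± 0.28 (SE, n = 3 per group, 95% interval -0.41 to 0.70, DESeq2 adjusted p = 0.856), and the groups overlapped. No rise of HDAC8 transcript was detected, with the interval of this fit reaching a 1.63-fold rise and that of the GC correction below reaching higher. This gene therefore does not check the labels, and HDAC8 below names a library by its label. Whether transcripts of the vector are counted under HDAC8 cannot be seen from the table. Mitochondrially encoded genes took 9.66% to 12.8% of the counts in EV and 4.46% to 7.94% in HDAC8 libraries. Of 7 melanocyte lineage markers, 4 were called lower in HDAC8, MLANA with the largest change at a log2 fold change of -4.84. Expression of SOX10 and MITF, the lineage factors, did not pass the test (DESeq2 adjusted p = 0.211 and 0.544). Of 13 markers of other cell types, DCN, CDH5 and PTPRC had too few counts to test, and the summed normalized count of the list was 2554 to 3205 in EV and 1535 to 2556 in HDAC8, most of it from LUM. Among those markers CD3E was called higher, with 0 in every EV library and 78.7, 91.1 and 50.1 in HDAC8 replicates 1, 2 and 3. The part of these differences in the values below was not tested.

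None of the 7 core genes was called higher or lower in HDAC8 libraries. Calls required an adjusted p (DESeq2, Benjamini-Hochberg over all genes tested) under 0.05 together with a log2 fold change past 0.58 in either direction. Of the 21021 genes with an adjusted p, 11.0% were called, 5.57% higher and 5.44% lower, and among the 8833 genes whose normalized count averaged 500 or more, as every core gene's did, 16.3% were called. No core gene had an unadjusted p under 0.05 in DESeq2, and edgeR and limma-voom called 0 of the 7 as well. In all 7 the EV and HDAC8 groups overlapped, while the groups did not overlap in 39.1% of these 8833 genes. The size of the log2 fold change had a median of 0.21 over the core genes and 0.29 over those better counted genes. All 7 of the 95% intervals lay within a 2-fold change in either direction, and 2 of them, for BRAF and NF1, lay within the threshold of 0.58.

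**Figure D1:**
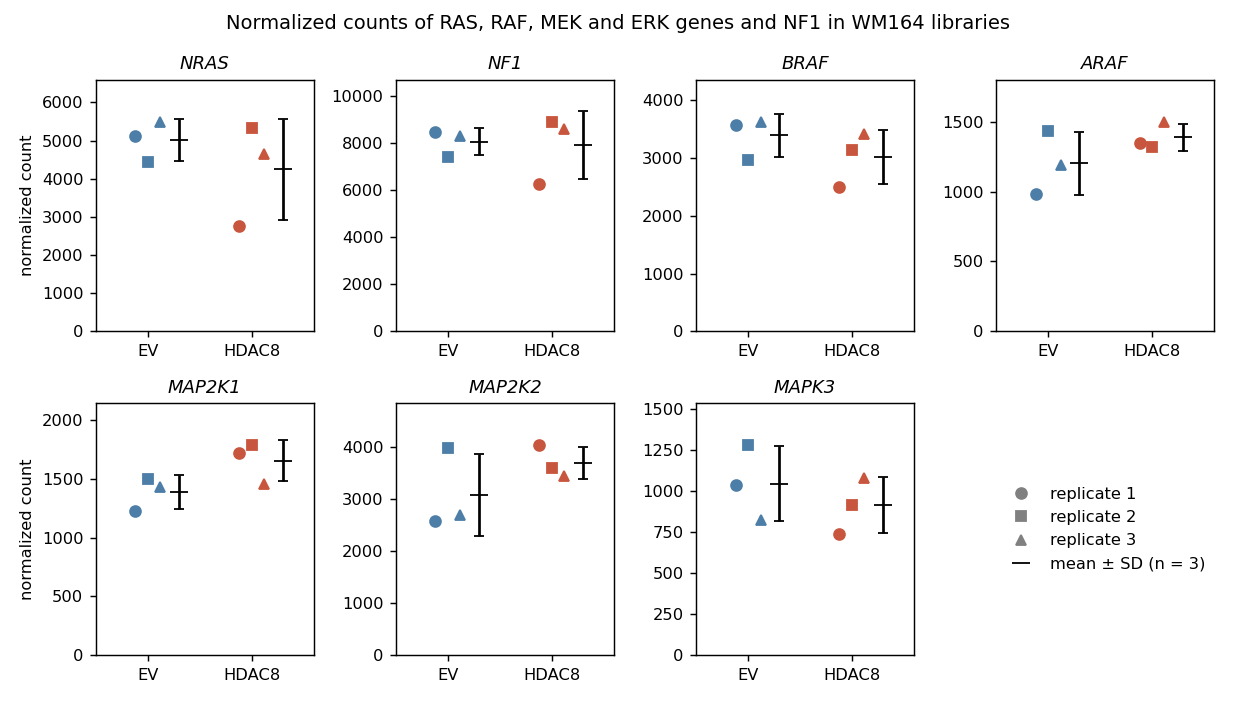
Normalized counts (vertical axis, from 0) of each core gene in the 3 EV and 3 HDAC8 libraries, with the symbol giving the replicate number and the bar the mean ± SD. The groups overlap in every panel, and HDAC8 replicate 1 is the lowest library for NRAS (2752.5), NF1 (6263), BRAF (2497) and MAPK3 (739.6).

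NRAS, the RAS gene most often mutated in melanoma, lies on chromosome 1 at 114704469 to 114716771 on the minus strand (GRCh38, GENCODE 44), with 7 exons in its canonical transcript. Its normalized counts were 5115, 4428 and 5497 in EV replicates 1, 2 and 3, and 2752.5, 5320.5 and 4661 in HDAC8 replicates 1, 2 and 3. Only HDAC8 replicate 1 was below the EV range, and the SD was 1334 around a mean of 4245 in HDAC8 against 542 around 5013 in EV. The log2 fold change was -0.24 ± 0.21 (SE, 95% interval -0.66 to 0.18, DESeq2 adjusted p = 0.579). It was -0.01 with HDAC8 replicate 1 left out and -0.43 with HDAC8 replicate 2 left out (adjusted p = 0.985 and 0.204 in DESeq2). Among 8834 genes with a mean of at least 500, MTX3, TP53RK and OSBPL8 had the profile over the 6 libraries nearest to that of NRAS. Nearness was the root mean square (RMS) difference of log2 values centred on each gene's mean, at 0.027 to 0.045 against a median of 0.40. Genes picked as nearest lie below the median by selection, here and for each core gene below.

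NF1 lies on chromosome 17 at 31094927 to 31382116 on the plus strand, with 58 exons. It had the highest normalized counts of the 7, which grow with transcript length, at 8465, 7388 and 8294 in EV replicates 1, 2 and 3 and 6263, 8908 and 8578 in HDAC8 replicates 1, 2 and 3. HDAC8 replicate 1 was the lowest and HDAC8 replicate 2 the highest of all libraries, so the HDAC8 group spanned the EV group. The fold change was 0.983 (95% interval 0.791 to 1.22, log2 -0.02 ± 0.16, DESeq2 adjusted p = 0.969). Its sign turned with HDAC8 replicate 1 left out, where the log2 value was 0.12. The genome carries partial copies of NF1, and the table listed 12 of them as pseudogenes, 7 with any count. Their summed count was 96.0 to 169 in 5 libraries and 452 in HDAC8 replicate 1, where it came to 6.17% of the NF1 count. The counts of NF1 itself were whole in every library, and how reads that match both NF1 and a copy were assigned cannot be seen from the table. The profiles nearest to NF1 were those of SPRED1, FOXJ3 and RALGAPB (RMS difference 0.029 to 0.032, median over all genes compared 0.30).

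BRAF, the kinase that carries V600E in this line, lies on chromosome 7 at 140719327 to 140924929 on the minus strand, with 18 exons. The counts do not separate mutant from wild-type transcripts. Normalized counts were 3582, 2972 and 3633 in EV and 2497, 3149 and 3418 in HDAC8 replicates 1, 2 and 3. HDAC8 replicates 2 and 3 fell inside the EV range and replicate 1 below it. The fold change was 0.890 (95% interval 0.701 to 1.13, log2 -0.17 ± 0.18, DESeq2 adjusted p = 0.663), and the log2 value was -0.05 without HDAC8 replicate 1. NDUFB2, a subunit gene of mitochondrial complex I, overlaps the end of BRAF on the opposite strand. It had 1363 expected counts, not normalized, in HDAC8 replicate 1 against 368 to 672 in the other libraries. Strand-specific counting is not stated, so reads of the overlap cannot be assigned. TYW3, CLASP2 and HSPA14 had the nearest profiles (RMS difference 0.018 to 0.038, median 0.30).

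ARAF, a RAF paralogue with weaker kinase activity than BRAF, lies on chromosome X at 47561205 to 47571908 on the plus strand, with 16 exons. Normalized counts were 985, 1435 and 1192 in EV and 1348, 1318 and 1501 in HDAC8. All 3 HDAC8 values were above EV replicates 1 and 3, and EV replicate 2 lay inside the HDAC8 range. The fold change was 1.15 (95% interval 0.866 to 1.54, log2 0.21 ± 0.21, DESeq2 adjusted p = 0.657). Without EV replicate 2 the log2 value was 0.35, and without EV replicate 1 it was 0.08, so it depended on which EV library was kept. SRCAP, A2M and SEC61A1 had the nearest profiles (RMS difference 0.051 to 0.054, median 0.32).

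MAP2K1, which encodes MEK1, lies on chromosome 15 at 66386837 to 66491656 on the plus strand, with 11 exons. Its normalized counts were 1225, 1504 and 1433 in EV and 1720.4, 1787 and 1458 in HDAC8. HDAC8 replicates 1 and 2 were above every EV library, and replicate 3 was inside the EV range. The fold change was 1.19 (95% interval 0.919 to 1.55, log2 0.25 ± 0.19, DESeq2 adjusted p = 0.482). Its expected counts were not whole in 4 of 6 libraries, which means that reads were divided between MAP2K1 and another gene, while the counts of the other 6 core genes were whole. The antisense gene AC116913.1 and the transcription factor subunit gene SNAPC5 overlap it on the opposite strand, with 45.9 to 155 and 211 to 507 counts per library. BABAM1, MED25 and CUEDC2 had the nearest profiles (RMS difference 0.038 to 0.053, median 0.31).

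MAP2K2, which encodes MEK2, lies on chromosome 19 at 4090321 to 4124122 on the minus strand, also with 11 exons. Its normalized counts were 2572, 3992 and 2698 in EV and 4040.3, 3597 and 3441 in HDAC8. The 3 HDAC8 libraries were all above EV replicates 1 and 3, and EV replicate 2 was above HDAC8 replicates 2 and 3. The fold change was 1.196 (95% interval 0.922 to 1.55, log2 0.26 ± 0.19, DESeq2 adjusted p = 0.472). Without EV replicate 2 the log2 value was 0.49, with a DESeq2 adjusted p of 0.0536, the smallest that any setting gave a core gene, and without EV replicate 1 it was 0.14. NUMBL, PRELID1 and SLC25A11 had the nearest profiles (RMS difference 0.038 to 0.041, median 0.36).

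MAPK3, which encodes ERK1, lies on chromosome 16 at 30114105 to 30123506 on the minus strand, with 9 exons. It had the lowest mean normalized count of the 7, with 1034, 1278 and 822 in EV and 739.6, 915 and 1080.2 in HDAC8. Both groups were spread widely, HDAC8 replicate 1 being lowest and EV replicate 2 highest. The fold change was 0.872 (95% interval 0.621 to 1.23, log2 -0.20 ± 0.25, DESeq2 adjusted p = 0.749), the widest interval among the core genes. The log2 value was -0.07 without HDAC8 replicate 1, -0.03 without EV replicate 2 and -0.35 without EV replicate 3. UBALD2, MIDN and NAPA had the nearest profiles (RMS difference 0.064 to 0.087, median 0.36).

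**Figure D2:**
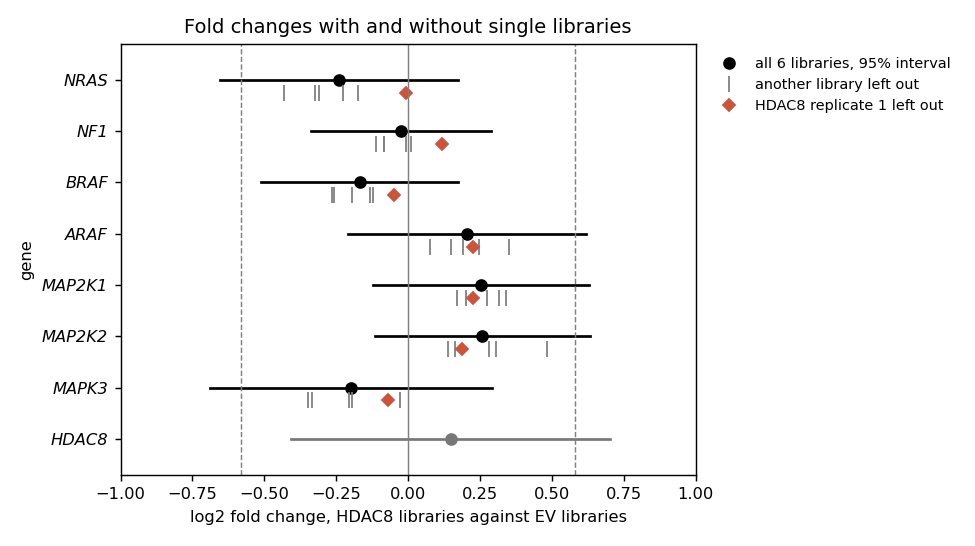
Log2 fold change of HDAC8 against EV libraries (horizontal axis) for the 7 core genes and HDAC8, with black and grey lines giving 95% intervals, ticks the estimate with another library left out and diamonds the estimate without HDAC8 replicate 1. All intervals cross 0, the dashed lines mark the threshold of 0.58, and the diamonds of NRAS (-0.01), BRAF (-0.05) and MAPK3 (-0.07) lie near 0.

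HDAC8 replicate 1 stood apart from the other HDAC8 libraries by the GC content of transcripts. Protein-coding genes with a mean of at least 500 were placed in 5 bins by the GC content of their longest annotated transcript, with 1709 or 1710 genes in each. In the lowest bin (29.2% to 40.0% GC) the median log2 ratio of HDAC8 replicate 1 to the mean of the rest of its group was -0.52, and in the highest bin (56.7% to 72.0%) it was 0.32. EV replicate 2 tilted the same way, from -0.26 to 0.35, and the other 4 libraries the opposite way, from 0.11 to 0.34 in the lowest bin and -0.25 to -0.10 in the highest. Each ratio is taken within its own group, so a tilt of 1 library shifts the ratios of the others. In 5 bins by transcript length the same ratio of HDAC8 replicate 1 went from 0.03 in the shortest bin to -0.20 in the longest. BRAF and NF1 were in the longest bin, and the parts of length and GC content were not tested. NRAS (37.4% GC), BRAF (40.7%) and NF1 (41.8%) had log2 ratios of HDAC8 replicate 1 to the mean of HDAC8 replicates 2 and 3 of -0.86, -0.40 and -0.48. The GC-richer MAP2K1 (50.04%), ARAF (59.0%) and MAP2K2 (60.0%) had ratios of 0.08, -0.06 and 0.20. MAPK3 did not follow that order, with 61.4% GC and a ratio of -0.43.

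**Figure D3:**
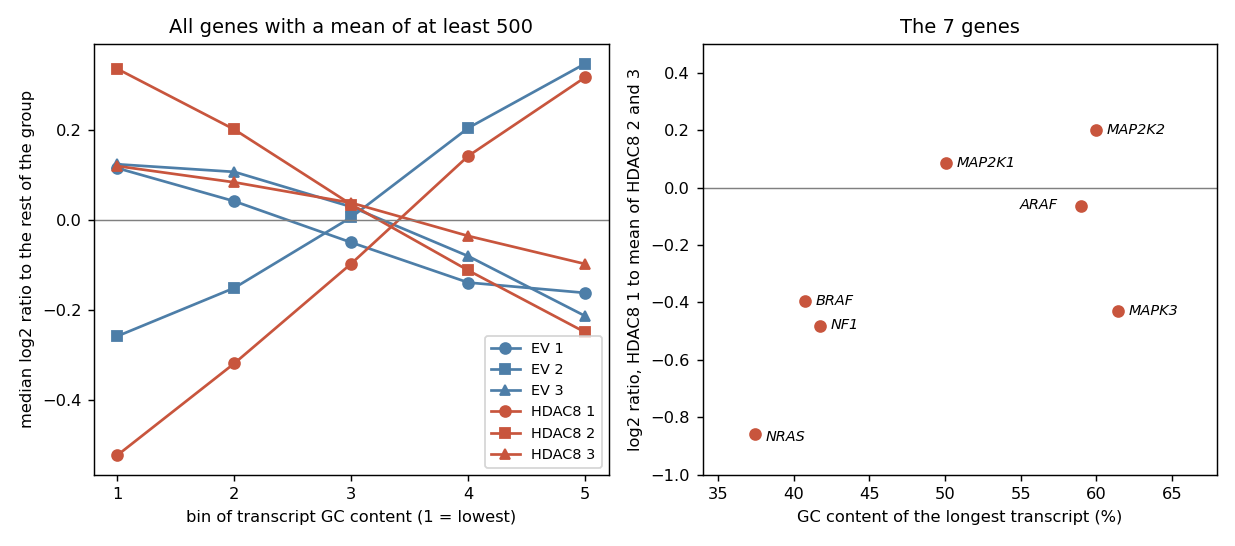
Left, the median log2 ratio of each library to the mean of the rest of its group in 5 bins of transcript GC content, for genes with a mean of at least 500. Right, the log2 ratio of HDAC8 replicate 1 to the mean of HDAC8 replicates 2 and 3 against GC content for the 7 core genes, where NRAS is lowest at -0.86 and MAPK3 lies apart from the other GC-rich genes at -0.43.

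With each library's size factor corrected for this GC dependence, a setting chosen after seeing the data, no core gene was called. The standard errors of the log2 fold changes were smaller for NRAS (0.13 against 0.21), BRAF (0.12 against 0.18), NF1 (0.10 against 0.16) and MAP2K2 (0.14 against 0.19). The log2 fold change was then -0.15 for NRAS (95% interval -0.40 to 0.10), -0.02 for BRAF (-0.25 to 0.21) and 0.03 for NF1 (-0.16 to 0.23). For ARAF it was 0.12 (-0.25 to 0.48), for MAP2K1 0.23 (-0.10 to 0.56) and for MAP2K2 0.15 (-0.12 to 0.43). MAPK3, at -0.32 (-0.80 to 0.17), was the only core gene whose interval then reached past the threshold of 0.58. For the HDAC8 transcript the corrected log2 fold change was 0.31 (95% interval -0.23 to 0.86, DESeq2 adjusted p = 0.549), and it was not called.

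Levels of different genes were compared per length within a library, as TPM, the share of transcripts after division by length, computed here from the counts and the longest annotated transcript. Mitochondrial genes took 23.5% to 29.6% of all TPM in EV and 11.5% to 20.7% in HDAC8 libraries, which lowers every other TPM value in EV, so groups were not compared on this scale. Over the 6 libraries NRAS had the highest mean level at 77.4 TPM (50.4 to 93.3), followed by MAP2K2 at 71.0 TPM (49.98 to 91.6). NRAS was above MAP2K2 in 4 of 6 libraries, so their order was not separated. NF1 had 46.6 TPM, ARAF 39.8, MAPK3 27.6, BRAF 23.8 and MAP2K1 22.8. MAP2K2 was above NF1 and ARAF above MAPK3 in 6 of 6 libraries, NF1 above ARAF in 4, MAPK3 above BRAF in 5 and BRAF above MAP2K1 in 3. With the union of all annotated exons as length, NRAS stayed first at 95.6 TPM and BRAF was last at 12.3, with NF1 at 17.5, so the places of these long genes depended on the length used.

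MAP2K1 made up 24.8% ± 3.21 (SD, n = 3) of the summed TPM of MAP2K1 and MAP2K2 in EV and 24.3% ± 1.68 in HDAC8, so MAP2K2 was the main MEK transcript in both groups. This share was added after the values were seen.

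Ratios of paralogues within a library do not depend on the scaling between libraries, but they do not remove a tilt by GC content. The ratio of BRAF to ARAF in TPM was 0.882, 0.502 and 0.739 in EV and 0.449, 0.579 and 0.552 in HDAC8. The groups overlapped, and the mean log2 ratio differed by -0.40 (HDAC8 minus EV; two-sided exact permutation test, p = 0.3). That difference was -0.22 without EV replicate 1 and -0.62 without EV replicate 2. BRAF (40.7% GC) and ARAF (59.0%) differ in GC content. The lowest ratio of each group came from EV replicate 2 and HDAC8 replicate 1, the libraries tilted toward GC-rich transcripts. With the GC correction the log2 fold changes were -0.02 for BRAF and 0.12 for ARAF. The ratios were not corrected, and the part of the tilt in this difference was not tested. The ratio of MAP2K1 to MAP2K2 was 0.341, 0.270 and 0.381 in EV and 0.305, 0.356 and 0.304 in HDAC8, a log2 difference of -0.03 (exact permutation p = 1). The ratios themselves depend on the length used, and with exon unions the mean log2 ratio in EV was -1.27 in place of -0.54 for BRAF to ARAF and -0.87 in place of -1.61 for MAP2K1 to MAP2K2, while the differences between groups do not depend on it. Adjusted over the 2 ratios, the p-values of the exact permutation tests were 0.6 and 1, and 0.1 is the smallest unadjusted p that 3 against 3 libraries can give.

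Beyond the core, 83 genes of the pathway were grouped in 8 lists, and 81 had enough counts to be tested. Of the 77 with an adjusted p, 3 were called higher and 7 lower in HDAC8 libraries. This share of 13.0% lay between the 11.0% called of all genes and the 16.3% called of the better counted genes, averaging 500 or more. In the lists 73 genes averaged 50 or more. Neither background was matched to them by count, so the share was not read as above or below background. The median log2 fold change of the 81 tested was 0.06 against 0.00 over all genes tested. The number called lower was 4 without EV replicate 2 and 3 without EV replicate 3.

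**Figure D4:**
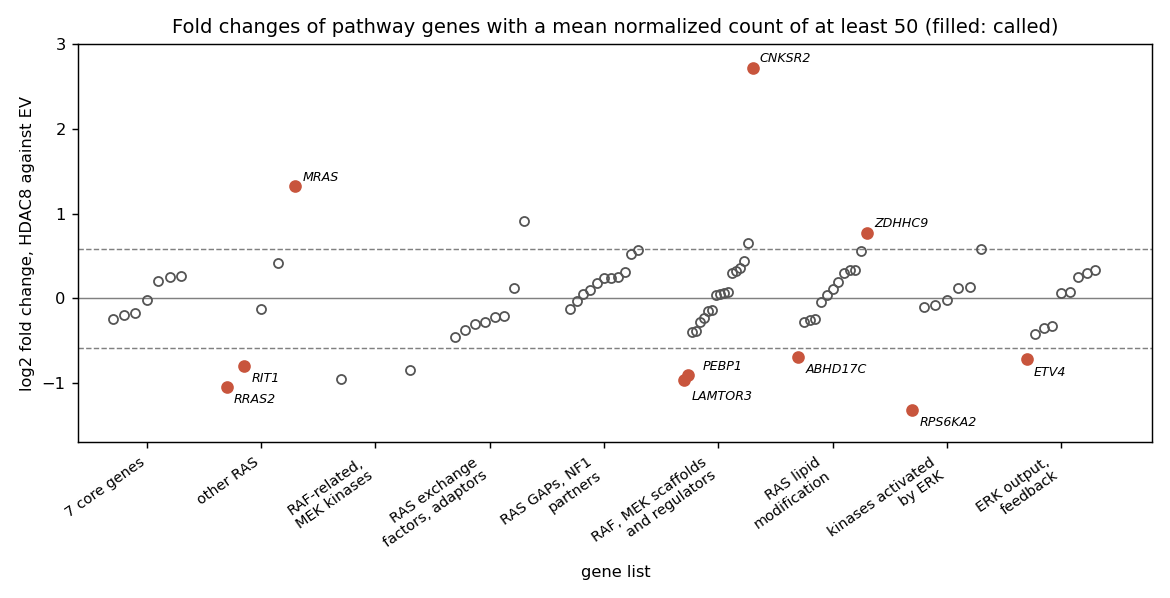
Log2 fold change of HDAC8 against EV libraries (vertical axis) for the 7 core genes and for the genes of 8 pathway lists whose normalized count averaged 50 or more, with dashed lines at 0.58 in either direction and filled points for called genes. The core genes lie between -0.24 and 0.26, while CNKSR2 reaches 2.72 and RPS6KA2 -1.32.

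Of 5 other RAS genes, 1 was called higher and 2 lower, with a median log2 fold change of -0.13. MRAS, a RAS relative that acts with SHOC2 and protein phosphatase 1 to activate RAF, rose from 626, 701 and 747 in EV to 1429.7, 1804 and 1963 in HDAC8 replicates 1, 2 and 3 (log2 1.32 ± 0.21, DESeq2 adjusted p = 2.64e-08). This call was kept with each library left out. RRAS2, an R-RAS relative, fell from 616, 711 and 812 to 330.1, 416 and 289 (log2 -1.05 ± 0.28, adjusted p = 0.0034). RIT1, a RAS-like GTPase, fell from 942, 1017 and 978 to 565, 492 and 633 (log2 -0.80 ± 0.23, adjusted p = 0.00731). RRAS2 lost its call without EV replicate 3 and RIT1 without EV replicate 2 or 3. Expected counts of RRAS2 were not whole in 3 of 6 libraries, so reads were shared with another gene. HRAS did not pass the test (log2 0.42 ± 0.44, adjusted p = 0.66), with 526 in HDAC8 replicate 1 and 209 to 262 in the other libraries.

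Of the 4 RAF-related and MEK-kinase genes MAP3K8, MOS, KSR1 and KSR2, 3 could be tested and none was called by DESeq2, edgeR or limma-voom (median log2 fold change -0.84). At an unadjusted p under 0.05 KSR1 was lower and KSR2 higher in DESeq2, both scaffold genes of the KSR family, which were picked out after their values were seen. KSR2 had few counts, with 0, 15.9 and 31.5 in EV replicates 1, 2 and 3 and a mean of 48.2 over all libraries. Expected counts of KSR1 were not whole in 5 of 6 libraries.

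RAF and MEK scaffolds and regulators had 1 call higher and 2 lower among 18 genes, with a median log2 fold change of 0.05. PEBP1, also known as RAF kinase inhibitor protein, fell from 3727, 4347 and 3597 in EV to 2391, 1797 and 2041 in HDAC8 (log2 -0.91 ± 0.17, DESeq2 adjusted p = 5.12e-06). LAMTOR3, which encodes the MEK partner MP1 on late endosomes, fell from 1756, 1228 and 1575 to 481, 950.4 and 911 (log2 -0.96 ± 0.27, adjusted p = 0.0059). CNKSR2, a scaffold known mainly from neurons, rose from 36.7, 39.2 and 28.6 to 149, 281 and 260.3 (log2 2.72 ± 0.53, adjusted p = 9.11e-06). PEBP1 and CNKSR2 kept their calls with each library left out, and LAMTOR3 lost its call without EV replicate 1 or 3. CDC37 and HSP90AA1, which encode chaperones of kinases, were higher at an unadjusted p under 0.05 in DESeq2 without being called. Without HDAC8 replicate 1 the log2 value of CDC37 went from 0.44 to 0.27 (DESeq2 adjusted p = 0.313). That of HSP90AA1 went from 0.30 to 0.37 (DESeq2 adjusted p = 0.00342). HSP90AA1 did not reach an unadjusted p under 0.05 in edgeR, and its expected counts were not whole in 6 of 6 libraries.

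Genes of RAS lipid modification and trafficking had 1 call in each direction among 13, with a median of 0.11. ZDHHC9, a palmitoyltransferase for HRAS and NRAS, rose from 674, 1105 and 825 in EV to 1177, 1512 and 1766 in HDAC8 (log2 0.77 ± 0.25, DESeq2 adjusted p = 0.0186). ABHD17C, of a family of depalmitoylases that act on NRAS, fell from 1221, 1344 and 1251 to 701, 782 and 879 (log2 -0.69 ± 0.21, adjusted p = 0.0108). Each was called in fewer than 4 of the 6 fits with a library left out. ZDHHC9 lost its call without EV replicate 1 or 3 or HDAC8 replicate 2 or 3, and ABHD17C without any one of the EV libraries. With the GC correction ABHD17C was not called either, at a log2 value of -0.55, short of the threshold, while ZDHHC9 was.

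Among 7 tested kinases activated by ERK, 1 was lower and the median was -0.02. RPS6KA2, which encodes the ribosomal S6 kinase RSK3, fell from 1237, 1227 and 857 in EV to 421, 390.2 and 523 in HDAC8 (log2 -1.32 ± 0.26, DESeq2 adjusted p = 1.10e-05), and kept its call with each library left out. RPS6KA4 was higher at an unadjusted p under 0.05 in DESeq2 without being called. It had 1206 in HDAC8 replicate 1, 752 and 864 in HDAC8 replicates 2 and 3, and 560 to 757 in EV, so the groups overlapped. Without HDAC8 replicate 1 its log2 value went from 0.58 to 0.36 (DESeq2 adjusted p = 0.435). Of 10 ERK output and feedback genes, 1 was lower and 9 were not called, with a median of 0.07. ETV4, an ETS factor whose transcription follows ERK activity, fell from 5365, 7323 and 5258 to 3249, 3920.4 and 3731 (log2 -0.72 ± 0.17, adjusted p = 0.000504). Without EV replicate 2 its log2 value was -0.55, short of the threshold. SPRY4, another feedback gene, had a DESeq2 adjusted p of 0.0109 with a log2 fold change of -0.43, short of the threshold. DUSP4, DUSP6 and SPRY2, feedback inhibitors of the pathway, had log2 fold changes of 0.07, 0.29 and 0.25 and did not pass the test (DESeq2 adjusted p = 0.821, 0.143 and 0.43). At an unadjusted p under 0.05 in DESeq2, 2 of the 10 were higher, DUSP6 and the cyclin D1 gene CCND1, and 4 were lower, ETV4, ETV5, EPHA4 and SPRY4. CCND1 had a log2 fold change of 0.33 (DESeq2 adjusted p = 0.0773). Without HDAC8 replicate 1 the log2 values of CCND1 and DUSP6 were 0.43 and 0.37 (DESeq2 adjusted p = 1.19e-05 and 0.00452), both short of the threshold of 0.58. In the same fit ETV4 and SPRY4 were lower, at -0.65 and -0.39 (DESeq2 adjusted p = 0.000444 and 0.00251). ETV5 and EPHA4 were at -0.20 and -0.34 (DESeq2 adjusted p = 0.222 and 0.0907). At an unadjusted p under 0.05, edgeR had 0 of the 10 higher and 4 lower. Expected counts of CCND1 and DUSP6 were not whole in 6 of 6 libraries. Apart from ETV4, these genes were named after their values were seen.

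The 12 RAS exchange factors and adaptors had 10 genes with an adjusted p and no call. The median log2 fold change was -0.22 over all 12 and -0.25 over the 8 with a mean of at least 50. SOS1 and PTPN11 were lower at an unadjusted p under 0.05 in DESeq2. SOS1, an exchange factor that loads RAS with GTP, had 2000 in HDAC8 replicate 1 and 3962 and 3992 in replicates 2 and 3, and without HDAC8 replicate 1 its log2 value went from -0.45 to -0.19 and that of PTPN11 from -0.31 to -0.20. The 13 RAS GTPase-activating proteins and NF1 partners had 11 with an adjusted p and no call. Their median log2 fold change was 0.18 over all 13 and 0.24 over the 11 with a mean of at least 50. RASAL2 and LZTR1 were higher at an unadjusted p under 0.05 in DESeq2. LZTR1, an adaptor for RAS degradation, had 5075 in HDAC8 replicate 1 and 2176 to 3065 in the other libraries (log2 0.57 ± 0.22, DESeq2 adjusted p = 0.0648). Without HDAC8 replicate 1 its log2 value was 0.26. In these 2 lists edgeR and limma-voom also called 0 genes.

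Within 1000000 bases of the start of a core gene, 278 other genes had an adjusted p, of which 11 were called higher and 9 lower, 7.19% against 11.0% of all genes. Near MAP2K2, 6 of 54 were higher and 1 lower, and near MAPK3, 7 of 98 were lower, while the core genes themselves were not called.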

How the data were processed

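RNA-seq of WM164 cells gave 6 libraries, 3 EV and 3 HDAC8. The authors trimmed reads with Trimmomatic, aligned them with STAR and deposited RSEM expected counts, in which reads that match several genes are divided. Genome build, annotation, strand setting and duplicate removal are not given in the sources used here. Counts were rounded here. Of 60504 genes, 3508 had no symbol (0.0804% to 0.102% of counts) and were kept by identifier. Genes with a total of at least 10 (26162) were tested with DESeq2 1.42.0, as in the study, without a block, and edgeR 4.0.16 and limma 3.58.1 were alternatives, with other size factors, filters, lengths and single libraries left out. The fit was tested on simulated data. Positions, lengths and GC content came from GENCODE 44, which held 56558 of the identifiers.

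Named genes are the core genes, HDAC8, up to 4 called genes per list and direction with a mean of at least 50, overlapping genes and copies, lineage markers, and the 3 nearest profiles (log2 of normalized count + 1). Members and lists were chosen with earlier results of these data known, and a few genes of the lists are not reported here. All replicate pairs differed by more than counting error (chi-square per degree of freedom 26.0 to 153).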

Additional observations from a re-analysis of the deposited data

How the results depend on the processing

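Over 15 alternatives each, 101 of 105 log2 fold changes of the core genes kept their direction, and none of the 105 was called. The exceptions were all NF1, near 0, at 0.0098 with total-count size factors, 0.011 without EV replicate 1, 0.12 without HDAC8 replicate 1 and 0.035 with the GC correction. With single libraries left out the log2 fold change ran from -0.43 to -0.01 for NRAS, -0.11 to 0.12 for NF1, -0.27 to -0.05 for BRAF, 0.08 to 0.35 for ARAF, 0.17 to 0.34 for MAP2K1, 0.14 to 0.49 for MAP2K2 and -0.35 to -0.03 for MAPK3. The log2 difference of the MAP2K1 to MAP2K2 ratio ran from -0.17 to 0.080, crossing 0, and that of BRAF to ARAF from -0.62 to -0.22. With single libraries left out, 877 to 1218 of all genes were called higher and 746 to 1378 lower, with the 746 without EV replicate 3, and 2 to 3 pathway genes higher and 3 to 8 lower. By unadjusted p under 0.05 with the fold change minimum kept, 1839 of all genes and 5 pathway genes were higher and 1856 of all genes lower. With exon unions as length the levels were 12.3 TPM for BRAF, 34.4 for ARAF, 39.6 for MAP2K2 and 17.5 for NF1. The 10 named pathway genes kept direction in all 150 values and lost the call in 14.

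Same-numbered libraries did not deviate together (correlations of -0.03, -0.07 and 0.04 over 14451 genes), so the numbers were not read as pairs. With the replicate block 0 core genes were called, 4 pathway genes were higher and 7 lower, and 1075 of all genes were higher and 1078 lower. The replicate block gave -0.29 for NRAS, -0.04 for NF1, -0.17 for BRAF, 0.22 for ARAF, 0.25 for MAP2K1, 0.28 for MAP2K2 and -0.19 for MAPK3. Alternatives for tables without counts did not apply. The standard errors of the core genes were 0.16 to 0.25 in log2, and with 3 libraries per group the 95% intervals reached up to a 1.55-fold rise and down to 0.621 of the EV level.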
